A study of Mus musculus with 6 samples.

Results

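The keratin genes of mouse embryonic stem cells were followed across 6 expression arrays. Every gene whose symbol is Krt followed by a number, with or without a letter, was taken, with the symbol found through the gene number in the probe set name. This gave 42 of the 15267 genes tested, 4 of them the simple epithelial keratins Krt7, Krt8, Krt18 and Krt19. Members were chosen by symbol, with earlier results of these data known. Each gene's probe set was to be selected on its brightness, the mean log2 value over the arrays. No keratin had more than 1 probe set, so measured values did not decide which probe set was used. Of 54 keratin genes in the mouse gene table, the other 12 were not analysed here.

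The cells were of the line E14Tg2a.4, an established line of mouse embryonic stem cells, which were kept on gelatin in M15 medium. Fip1, a subunit of the factor that recognises poly(A) signals at transcript ends, was depleted with siRNA 2 or with siRNA 3, each on 2 arrays, and 2 further arrays came from mock transfected cells. All 3 groups received the lipofection reagent and were harvested on day 4, the mock cells without any siRNA, so there was no non-targeting siRNA. In each of the groups, the replicate 1 title ends in a common suffix and the replicate 2 title in another. The study asked how Fip1 depletion changes mRNA levels. Fip1l1, the targeted gene, was at 9.65 and 9.74 on the mock arrays and between 7.79 and 8.39 on the 4 siRNA arrays, with a difference of -1.62 (SE 0.176, adjusted p = 0.00176). All 10 embryonic stem cell markers lay above the median of all genes in mock, and their summed linear level was between 66367 and 73611 on every array. None of the 10 passed for both siRNAs, where 10.3% of all genes did. With a block for the replicate number 1 was higher (Nanog, 0.22) and 2 lower (Tdgf1, -0.29, and Klf2, -0.24). In that fit 8.43% and 11.7% of all genes were. The labels do not say whether replicates were separate cultures, so a p-value here reflects only how far these arrays vary, which may be technical. Probe positions were not used, so an altered transcript end and a changed level cannot be told apart.

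Keratins are the intermediate filament proteins of epithelial cells. A filament needs a type I and a type II keratin in a pair, and each epithelium uses its own pairs. Krt8 (type II) and Krt18 (type I) form the filaments of simple, single-layered epithelia and are the earliest keratins of the mouse embryo, where they mark the trophectoderm. Krt19 (type I) and Krt7 (type II) join them in many simple and ductal epithelia. Many of the other keratins belong to stratified or other epithelia, such as epidermis, cornea and oral mucosa. Further ones belong to the inner root sheath of the hair follicle, or to hair and nail. Krt42, Krt88 and Krt222 were placed in none of these classes.

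In the gene table Krt8 and Krt18 are direct neighbours, and Krt13, Krt15 and Krt19 follow each other in another keratin cluster. Of the measured keratins, 20 lie on the chromosome of Krt8 and Krt18 and 22 on that of Krt19. The promoters of 3 keratins on which the results turn are shown, from RefSeq on build GRCm38.p6, each 5′ to 3′ from 250 bases before a listed start to 50 after it. Krt13 has 2 listed starts, and both are shown. The regions are Krt8 (chr15:102004293-102004592, minus strand), Krt18 (chr15:102027966-102028265, plus strand), Krt13 at its upstream start (chr11:100121517-100121816, minus strand) and Krt13 at its downstream start (chr11:100120528-100120827, minus strand). Krt8 and Krt18 stand for the simple pair that moved together between replicates, and Krt13 for the keratin that passed the test after depletion. Capitals mark matches, on either strand, to the GC box GGGCGG, the TATA box TATAAA and the AP-1 site TGANTCA.
Krt8: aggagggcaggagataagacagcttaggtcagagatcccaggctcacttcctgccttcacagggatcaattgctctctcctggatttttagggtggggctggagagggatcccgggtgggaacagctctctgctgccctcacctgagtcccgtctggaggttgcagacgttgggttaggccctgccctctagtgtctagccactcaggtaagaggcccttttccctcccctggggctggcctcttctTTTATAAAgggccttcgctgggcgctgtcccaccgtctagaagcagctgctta
Krt18: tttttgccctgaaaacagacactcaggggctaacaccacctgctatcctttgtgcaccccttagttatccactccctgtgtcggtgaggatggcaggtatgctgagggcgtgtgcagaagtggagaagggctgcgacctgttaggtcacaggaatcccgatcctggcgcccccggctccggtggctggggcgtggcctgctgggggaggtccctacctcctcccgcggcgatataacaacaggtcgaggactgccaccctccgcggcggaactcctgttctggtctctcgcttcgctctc
Krt13 upstream: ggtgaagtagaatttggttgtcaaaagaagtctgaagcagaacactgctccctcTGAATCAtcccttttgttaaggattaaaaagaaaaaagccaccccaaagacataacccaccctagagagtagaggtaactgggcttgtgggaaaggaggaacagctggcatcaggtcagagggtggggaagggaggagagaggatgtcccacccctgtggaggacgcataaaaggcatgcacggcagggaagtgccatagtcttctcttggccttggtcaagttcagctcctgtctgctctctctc
Krt13 downstream: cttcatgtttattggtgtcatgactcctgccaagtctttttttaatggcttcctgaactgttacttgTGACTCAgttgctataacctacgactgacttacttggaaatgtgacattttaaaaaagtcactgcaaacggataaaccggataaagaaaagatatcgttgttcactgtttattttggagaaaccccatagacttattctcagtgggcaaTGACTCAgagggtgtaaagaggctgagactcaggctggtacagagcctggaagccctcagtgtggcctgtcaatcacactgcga
The Krt8 promoter held TATAAA on both strands in 2 overlapping matches and neither other motif. The Krt18 promoter held 0 matches to any of the 3. The upstream Krt13 promoter held 1 AP-1 match, and the downstream one 2, with no other motif in either. Promoters were found for 30 of the 42 keratins, 31 promoters in all. TATAAA was in 17 of these 31, against 13.6% of all 32851 promoters of the same length. The GC box was in 2 of 31 (Krt7 and Krt75), against 35.7% of all promoters, and the AP-1 site in 2 of 31, both of Krt13, against 7.81%.

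Values are log2 probe set values from RMA, and differences are on the same log2 scale. They are not compared between genes, since probe sets differ in brightness. In mock, 6 keratins lay above the median of all genes (6.20), which were Krt8, Krt18, Krt19, Krt42, Krt10 and Krt17, 12 lay between the 25th percentile (4.27) and the median, and 24 lay below the 25th percentile. No detection calls were used, so expression of the dim keratins is uncertain. Of the simple keratins 3 of 4 were above the median, and of the other 38 keratins 3 were.

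The largest differences among the keratins were between the replicate numbers and not between siRNA and mock. Krt8, Krt18 and Krt19 fell together on the arrays of replicate 2 in all 3 groups. Over the 42 keratins these 3 passed the test as lower on replicate 2 and 0 as higher. Of all genes 2.5% were called, 1.45% as lower and 1.05% as higher. All 4 simple keratins and 1 of the other 38 (Krt24) were lower on replicate 2 in all 3 groups, a pattern shown by 17.6% of all genes, and 10 of 42 keratins were higher in all 3 groups, against 22.6% of all genes. In bulk RNA, fewer cells of a type and less RNA per cell cannot be told apart. The median difference was -0.76 over the simple keratins, 0.08 over the other 38 and 0.02 over all genes.

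Krt18 had log2 values of 8.91 and 7.66 on the mock arrays (replicates 1 and 2), 8.87 and 8.02 with siRNA 2, and 9.12 and 8.01 with siRNA 3. The 3 arrays of replicate 1 were all higher than the 3 of replicate 2, with no overlap. Replicate 2 minus replicate 1 was -1.07 (SE 0.0951, 95% interval -1.29 to -0.86, 2.10-fold, adjusted p = 0.00105). Without group terms in the model the call ended (adjusted p = 0.0891).

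Krt8, the type II partner of Krt18, had values of 9.19 and 7.75 in mock, 9.41 and 8.69 with siRNA 2, and 9.59 and 8.88 with siRNA 3. Here too every array of replicate 1 was higher than every array of replicate 2, and the mock array of replicate 2 was the lowest of the 6. The difference between replicates was -0.96 (SE 0.135, 95% interval -1.26 to -0.65, 1.94-fold, adjusted p = 0.00985). This call, too, ended without group terms (adjusted p = 0.522). Krt78, the neighbour of Krt8 on its other side in the gene table and named for that after its values were seen, had a difference of 0.18 (adjusted p = 0.456).

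Krt19, the smallest type I keratin, had values of 7.04 and 6.80 in mock, 7.45 and 6.83 with siRNA 2, and 7.68 and 6.88 with siRNA 3. The 3 arrays of replicate 2 were close together and below all arrays of replicate 1. The difference was -0.56 (SE 0.119, 95% interval -0.82 to -0.29, 1.47-fold, adjusted p = 0.0461). This call ended without group terms (adjusted p = 0.533), after repeated quantile normalization (0.0555), without the variance trend (0.0708), with unnamed probe sets included (0.0516) and without any 1 of the 4 siRNA arrays (0.121 to 0.155).

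Krt7, a type II keratin of ductal and glandular epithelia, had values of 5.51 and 4.75 in mock, 5.36 and 5.20 with siRNA 2, and 5.26 and 5.06 with siRNA 3. Its replicate 2 array was the lower in each group, and it lay below the median of all genes. The difference of -0.37 (SE 0.136, adjusted p = 0.191) did not pass.

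**Figure D1:**
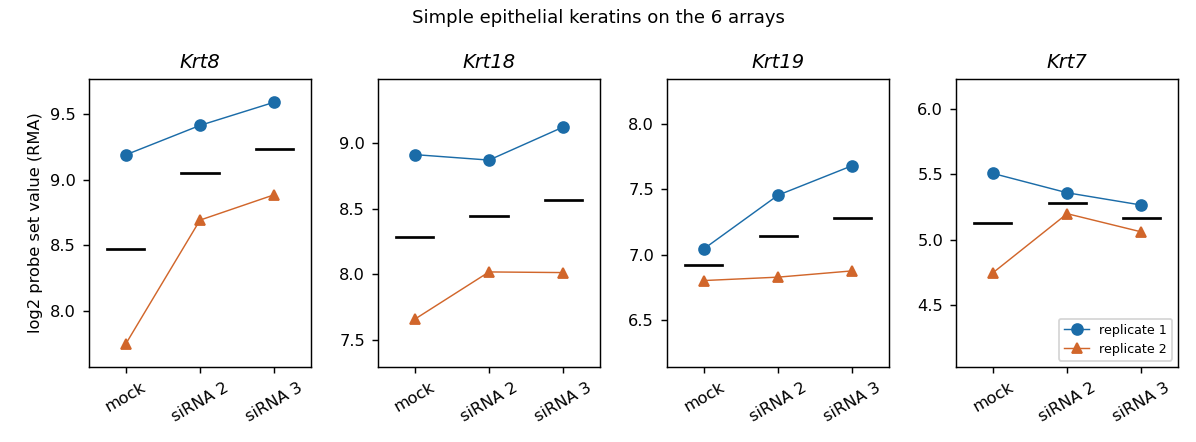
Log2 probe set values (y axis) of Krt8, Krt18, Krt19 and Krt7 in the mock, siRNA 2 and siRNA 3 groups (x axis), with circles for replicate 1, triangles for replicate 2, thin lines joining arrays of the same replicate number and black bars at group means. Each panel spans the same range of log2 units. Replicate 1 lies above replicate 2 in every group for all 4 genes, and for Krt8 the widest gap is in mock (9.19 against 7.75).

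Genes tied to keratins or epithelia were compared between the same arrays, list by list. Of 16 measured desmosome and plakin genes and 13 cornified envelope genes limma called 0 between replicates, where 2.5% of all genes were called. At an unadjusted p under 0.05 were 3 and 2 of them, and 2704 of 15267 genes. In all 3 groups 6 of the 16 desmosome and plakin genes were lower on replicate 2 and 1 higher, against 17.6% and 22.6% of all genes. Of 17 measured epithelial regulators 2 were lower on replicate 2 and 0 higher, where 1.45% and 1.05% of all genes were, and 10 of the 17 differences were positive. These were Esrp1, a splicing factor of epithelial cells, with a difference of -1.06 (adjusted p = 0.000437), and Grhl1, a grainyhead transcription factor, with -0.51 (adjusted p = 0.0452). Of 5 measured genes for keratin-binding proteins 1 was lower, against 1.45% of all genes. It was Fam83h, which recruits a kinase to keratin filaments, with a difference of -0.70 (adjusted p = 0.028). Of the 5 differences 0 were positive, with a median of -0.27. Esrp1 and the neurofilament and endoderm genes that follow were named after their values were seen, other than Cubn and Sox17.

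Between replicates 1.45% of all genes were lower on replicate 2 and 1.05% higher. In the list of other intermediate filaments 3 of 15 were lower on replicate 2, all of them neuronal. They were Nefl (-0.90, adjusted p = 0.00509) and Nefm (-0.94, adjusted p = 0.0117), the light and medium neurofilament chains, and Ina (-0.76, adjusted p = 0.00701), the internexin chain. Of 14 primitive endoderm markers 5 were higher on replicate 2 and 0 lower, namely Sox7 (0.80), Cubn (0.78), Sox17 (0.65), Gata6 (0.64) and Lama1 (0.43). The summed linear level of that list was 2391 (mock), 3176 (siRNA 2) and 3380 (siRNA 3) in replicate 1 and 3162, 3911 and 3713 in replicate 2. None of the 9 trophectoderm, 10 fibroblast or 7 stratified epithelium markers passed between replicates, where 2.5% of all genes did. Their part in the keratin difference was not tested.

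The depletion comparison asked whether keratin mRNAs differ between both siRNAs together and mock. Among 42 keratins 1 rose (Krt13), none fell and 41 missed the threshold. Of all genes 10.3% were called, 4.15% as higher and 6.19% as lower. A block for the replicate number, which takes out the difference between replicates, gave 4 keratins higher (Krt8, Krt13, Krt15 and Krt75) and 0 lower. In that fit 20.2% of all genes were called, 8.43% as higher and 11.7% as lower. The difference was positive for 32 of 42, with a median of 0.11 against 0.00 over all genes (7577 of 15267 positive). The 4 siRNA arrays lay wholly above the 2 mock arrays for 8 keratins and wholly below for 1, where 15.2% and 18.4% of all genes did so.

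Among the simple keratins the 4 differences were all positive (0.09 to 0.68) and 0 of 4 passed. For Krt8 the mean of both siRNAs was 0.68 above mock (SE 0.383, 95% interval -0.20 to 1.55, 1.60-fold), which did not pass (adjusted p = 0.333). With the replicate block it passed at the same difference (SE 0.144, 95% interval 0.35 to 1.00, adjusted p = 0.0102), and so did siRNA 2 (0.58, adjusted p = 0.0403) and siRNA 3 (0.77, adjusted p = 0.0149) alone.

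Both siRNA arrays were above the mock array of their replicate number, by 0.22 and 0.40 in replicate 1 and by 0.94 and 1.14 in replicate 2. The Krt8 result rested on mock replicate 2, the lowest array. Without it the difference was -0.04 (adjusted p = 0.965), or 0.31 with the block (adjusted p = 0.147). The siRNA effect of Krt8 was 0.73 larger in replicate 2 than in replicate 1 (95% interval 0.27 to 1.18, adjusted p = 0.999), a test chosen after seeing the data in which limma called 0 of 15267 genes and 679 had an unadjusted p under 0.05.

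Krt18, the partner of Krt8, did not pass in either fit, and the contrast between the partners was not tested. The Krt18 difference was 0.22 (SE 0.409, 95% interval -0.71 to 1.16, adjusted p = 0.804), or 0.22 with the block (95% interval -0.01 to 0.45, adjusted p = 0.169). The difference turned to -0.41 without mock replicate 2 and to -0.06 without siRNA 3 replicate 1. Against mock of the same replicate number the siRNA arrays were at -0.04 and 0.21 in replicate 1 and at 0.36 and 0.36 in replicate 2. Krt19 had a difference of 0.29 (95% interval -0.28 to 0.85, adjusted p = 0.544) and Krt7 of 0.09 (95% interval -0.37 to 0.56, adjusted p = 0.839). Krt19 was above mock by 0.41 and 0.63 in replicate 1 and by 0.03 and 0.07 in replicate 2, the opposite order to Krt8. That contrast between the genes was not tested.

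**Figure D2:**
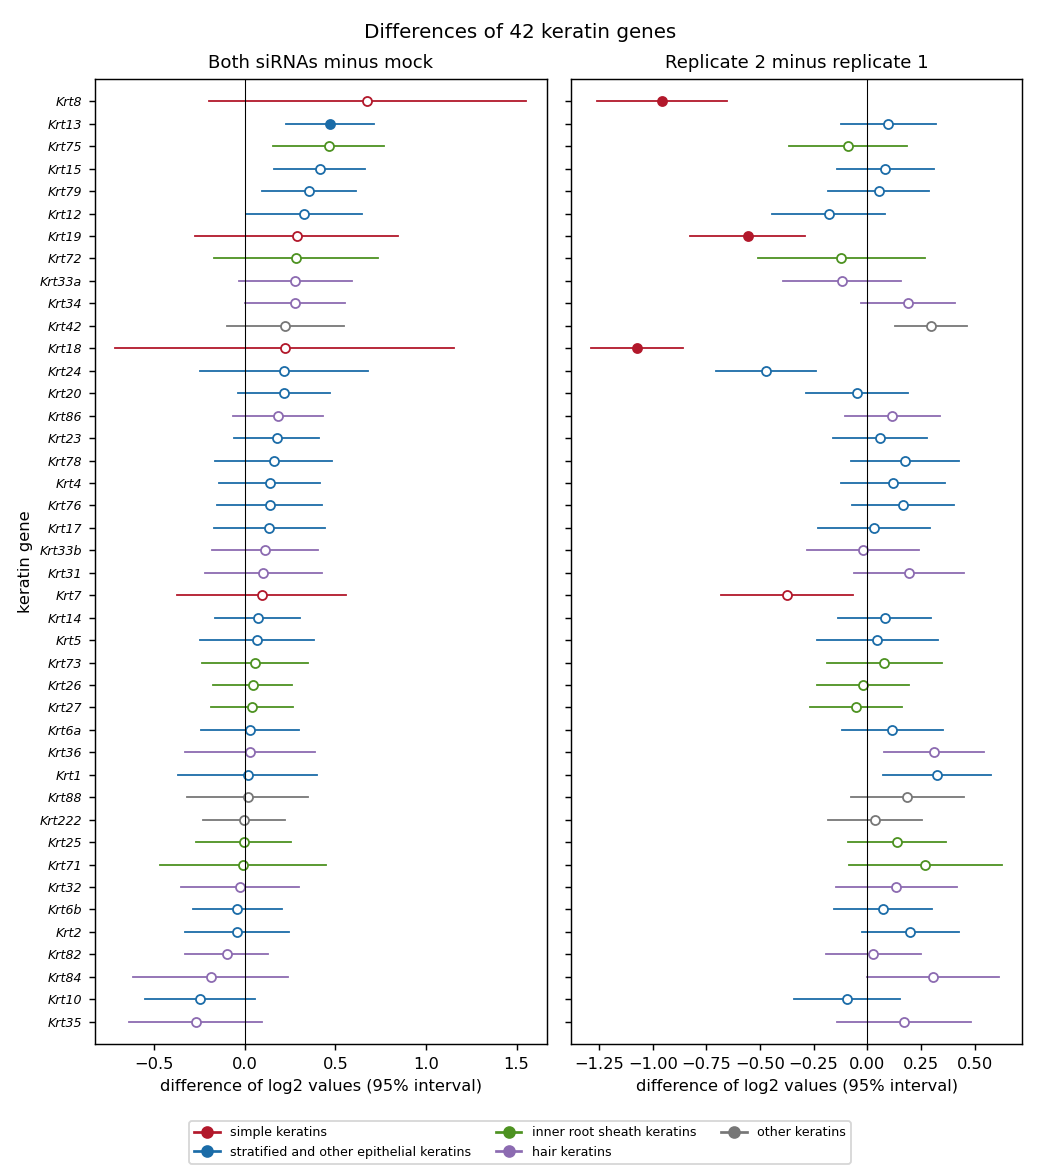
Differences of log2 values (x axes, points) with 95% confidence intervals (lines) for the 42 keratins (y axis), coloured by class and ordered by the siRNA difference, for both siRNAs minus mock (left) and replicate 2 minus replicate 1 (right). Filled points passed at an adjusted p under 0.05. On the left Krt13 is filled, and on the right Krt8, Krt18 and Krt19 are, at lower values than the other 39.

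Outside the simple class, of 18 measured keratins of stratified and other epithelia 1 rose, and of 7 inner root sheath keratins, 10 hair keratins and 3 others 0 did. Of all genes 4.15% rose, or 8.43% with the block. With the block 2 of the first class, Krt13 and Krt15, were higher. So was 1 that was listed with the inner root sheath, Krt75, a keratin of the companion layer of the hair follicle.

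Krt13, a type I keratin of oral and oesophageal mucosa, was at 3.34 and 3.55 in mock, 3.85 and 4.02 with siRNA 2, and 3.93 and 3.84 with siRNA 3. All siRNA arrays were above both mock arrays, though every value lay below the 25th percentile of mock. It rose by 0.47 (SE 0.106, 95% interval 0.23 to 0.71, 1.38-fold, adjusted p = 0.0284). The adjusted p was 0.0499 for siRNA 2 and 0.0763 for siRNA 3 (0.0382 with the block). The siRNA 2 call ended after repeated quantile normalization (0.056), without the variance trend (0.0635), with unnamed probe sets (0.0524) and without any 1 of the 6 arrays (0.0564 to 0.258). The call for both siRNAs ended without siRNA 2 replicate 2, siRNA 3 replicate 1, mock replicate 1 or mock replicate 2. Without an array and without the block the difference ran from 0.37 to 0.57. Among all 18 alternatives the call ended in 6, some of them blocked fits without an array.

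Krt15, the neighbour of Krt13 and a type I keratin of basal cells and the hair follicle bulge, was at 4.22 and 4.35 in mock, 4.70 and 4.81 with siRNA 2, and 4.64 and 4.65 with siRNA 3. The groups did not overlap. The difference of 0.41 (SE 0.111, 95% interval 0.16 to 0.67) had an adjusted p of 0.0511, and 0.0241 with the block. The blocked call ended without siRNA 2 replicate 2, siRNA 3 replicate 1 or either mock array (adjusted p 0.059 to 0.15). Krt19, next to Krt15 on the other side, had the difference of 0.29 given before, with overlapping groups.

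Krt75, a type II keratin of the companion layer of the hair follicle, was at 4.02 and 3.60 in mock, 4.14 and 4.26 with siRNA 2, and 4.32 and 4.36 with siRNA 3. The siRNA arrays were above both mock arrays, and mock replicate 2 was again the lowest. The difference of 0.46 (SE 0.134) had an adjusted p of 0.0646, and 0.0338 with the block. Without mock replicate 2 the blocked difference was 0.21 (adjusted p = 0.474), and without siRNA 2 replicate 2 it was 0.39 (adjusted p = 0.0992).

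Krt79, a type II keratin of sebaceous ducts, was at 4.31 and 4.49 in mock, 4.84 and 4.86 with siRNA 2, and 4.68 and 4.63 with siRNA 3. The groups did not overlap, yet the difference of 0.35 (SE 0.114) did not pass without the block (adjusted p = 0.0906) or with it (0.0521). With siRNA 2 alone the blocked adjusted p was 0.0399. Krt42, a type I keratin, was at 8.60 and 8.86 in mock, 8.97 and 9.31 with siRNA 2, and 8.64 and 8.92 with siRNA 3. For it siRNA 2 was 0.40 above mock (adjusted p = 0.187, or 0.0164 with the block), while siRNA 3 was at 0.04 (0.927).

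**Figure D3:**
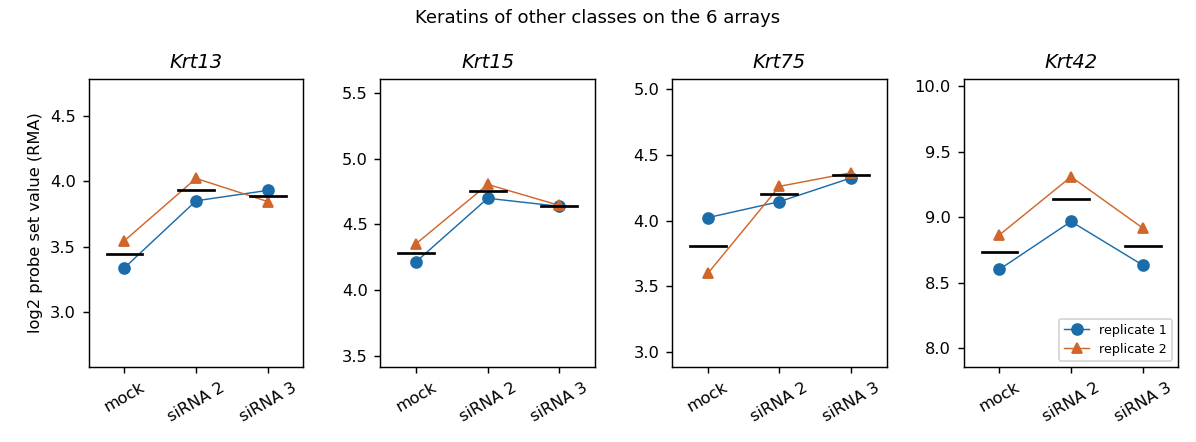
Log2 probe set values (y axis) of Krt13, Krt15, Krt75 and Krt42 in the mock, siRNA 2 and siRNA 3 groups (x axis), with circles for replicate 1, triangles for replicate 2, thin lines joining arrays of the same replicate number and black bars at group means. The siRNA arrays of Krt13, Krt15 and Krt75 lie above both mock arrays, while for Krt42 the groups overlap.

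No other keratin passed for either siRNA or both. Among those left, the largest positive differences were 0.33 for Krt12 of the cornea (adjusted p = 0.193), 0.28 for Krt72 of the inner root sheath (0.448) and 0.28 for the hair keratin Krt33a (0.255). The largest negative ones were -0.27 for the hair keratin Krt35 (0.356), -0.25 for Krt10, the type I keratin of suprabasal epidermis (0.302), and -0.19 for Krt84 of hair and nail (0.616). Krt35 passed without mock replicate 1 (-0.59, adjusted p = 0.0295) and was at 0.05 without mock replicate 2. Krt10 was the keratin whose siRNA arrays (6.71 to 7.07) all lay below mock (7.17 and 7.22). Krt17, a type I keratin of hair follicle and wounded skin, was at 0.14 (0.61). Krt33a has a near-identical copy, Krt33b, so its probe set may read both.

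No keratin passed the test between the 2 siRNAs. For siRNA 2 minus mock 1 of 42 rose, Krt13, where 6.92% of all genes were called (2.91% higher, 4.01% lower). With the block 5 of 42 were higher (Krt8, Krt13, Krt15, Krt42 and Krt79), where 17.2% of all genes were called (7.24% higher, 9.95% lower). For siRNA 3 minus mock limma called 0 keratins, where 5.74% of all genes were called (2.26% higher, 3.48% lower). At an unadjusted p under 0.05 were 3 keratins and 3141 of 15267 genes. With the block 3 were higher (Krt8, Krt13 and Krt75), where 14.1% of all genes were called (5.74% higher, 8.38% lower). No keratin was called lower in either comparison. For siRNA 2 minus siRNA 3 limma called 0 of 42 keratins and 0% of all genes. At an unadjusted p under 0.05 were 2 of 42 keratins and 644 of 15267 genes. The intervals of that difference were -1.20 to 0.83 for Krt8, -1.20 to 0.96 for Krt18, -0.79 to 0.51 for Krt19 and -0.23 to 0.33 for Krt13. With the block they were -0.56 to 0.19, -0.39 to 0.14, -0.46 to 0.19 and -0.22 to 0.32 in the same order. For Krt42 the difference was 0.36, with an interval of -0.01 to 0.73 (adjusted p = 0.984). With the block its interval was 0.15 to 0.57 (adjusted p = 0.398), above 0 though the test did not pass. Differences within the blocked ranges are not excluded in either fit. Both siRNA comparisons use the same mock arrays.

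Desmosomes anchor keratin filaments at cell contacts through desmoplakin, plakoglobin and plakophilins. Of 16 measured desmosome and plakin genes 2 rose and 1 fell, where 4.15% and 6.19% of all genes did. Dsp, desmoplakin, was at 6.78 and 6.18 in mock, 7.16 and 7.17 with siRNA 2, and 7.39 and 7.27 with siRNA 3. All siRNA arrays were above mock, and it rose by 0.77 (SE 0.169, adjusted p = 0.0254). Pkp2, a plakophilin, fell from 10.2 and 10.4 in mock to between 8.98 and 9.68, a difference of -0.98 (SE 0.16, adjusted p = 0.00818). Perp, a desmosomal membrane protein and p53 target, rose by 1.83 (adjusted p = 0.000473). With the block 5 genes were higher and 2 lower (8.43% and 11.7% of all genes), among them Jup, plakoglobin, with a difference of 0.52 (adjusted p = 0.243, or 0.048 with the block).

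Other intermediate filament genes were called in both directions, with 3 of 15 higher and 1 lower against the same 4.15% and 6.19% of all genes. Lmna, the A-type lamin, rose by 0.77 (SE 0.145, adjusted p = 0.0146), Prph, peripherin, by 0.67 (adjusted p = 0.0208) and Synm, synemin, by 0.57 (adjusted p = 0.0334). Nefh, the heavy neurofilament chain, fell by 0.47 on the log2 scale (adjusted p = 0.0173). With the block 5 were higher and 2 lower, against 8.43% and 11.7% of all genes. The list median was 0.18, that of the desmosome list 0.14 and that of all genes 0.00.

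**Figure D4:**
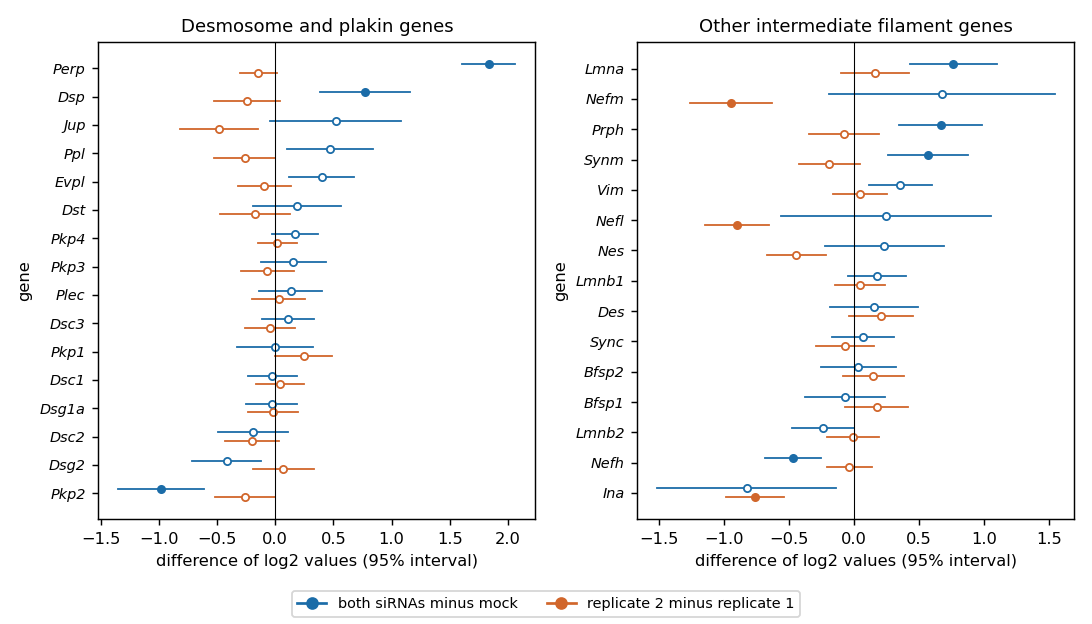
Differences of log2 values (x axes, points) with 95% confidence intervals (lines) for desmosome and plakin genes (left) and other intermediate filament genes (right, y axes), for both siRNAs minus mock (blue) and replicate 2 minus replicate 1 (orange). Filled points passed at an adjusted p under 0.05. In blue Perp, Dsp, Lmna, Prph and Synm are filled above 0 and Pkp2 and Nefh below it, and in orange Nefm, Nefl and Ina are filled below 0.

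Of 5 measured genes for keratin-binding proteins 0 passed, where 10.3% of all genes did. Pof1b had a difference of 0.77 (adjusted p = 0.0506), Fbf1, a protein of desmosomes and centrioles, of 0.47 (0.0512), Tchp, trichoplein, of 0.32 (0.377) and Fam83h of 0.16 (0.803). With the block 2 were higher, Pof1b (0.00805) and Fbf1 (0.0112), against 8.43% of all genes. Of 17 epithelial regulators 2 rose and 0 fell, where 4.15% and 6.19% of all genes did. Foxa1, a forkhead factor, was at 4.95 and 4.68 in mock and between 6.60 and 7.57 with siRNA, a rise of 2.29 (adjusted p = 0.00176). Gata3, a zinc finger factor of trophectoderm and skin, rose by 0.82 (adjusted p = 0.00697). Tfap2c had a difference of 0.37 (0.0949, or 0.0232 with the block) and Grhl1 of -0.39 (0.351, or 0.0422 with the block). The blocked fit gave 3 of the 17 higher and 2 lower, against 8.43% and 11.7% of all genes.

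Of 13 measured cornified envelope genes 1 rose, against 4.15% of all genes. It was Krtdap, a secreted protein of differentiating keratinocytes, with a difference of 0.74 (adjusted p = 0.0287). Its values were 3.60 and 3.29 in mock and between 4.01 and 4.60 with siRNA, mostly below the 25th percentile of mock. Tgm1, the keratinocyte transglutaminase, had a difference of 0.41 (0.0646, or 0.0231 with the block). Lor, loricrin, had a difference of 0.19 (0.581) and Sprr3 of 0.13 (0.57). The block gave 2 of 13 higher, against 8.43% of all genes. Of 34 measured keratin-associated protein genes, which encode the matrix of the hair shaft, limma called 0 in either direction with or without the block. The shares of all genes were 20.2% and 10.3%. Without the block 0 of the 34 had an unadjusted p under 0.05, against 3717 of 15267 genes. The differences ran from -0.20 (Krtap19-5) to 0.23 (Krtap4-6), and 32 of the genes lay below the 25th percentile in mock.

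Markers of other cell types stood beside the keratin differences as follows. Of all genes 4.15% rose and 6.19% fell, or 8.43% and 11.7% with the block. An unadjusted p under 0.05 was found for 3717 of 15267 genes without the block. Of 9 trophectoderm markers 2 rose (Eomes by 1.02 and Gata3) and Ascl2 fell by 0.78. In mock 2 of the 9 lay above the median of all genes and 3 below the 25th percentile. Their summed linear level was 648 to 673 in mock and 805 to 922 with siRNA. Such a sum is weighted to the brightest marker, which was at 8.57 and 8.59 in mock and 8.81 to 9.12 with siRNA. The median difference of the list was 0.13. Gene by gene, the siRNA arrays lay wholly above mock for 4 of the 9 and wholly below for 1. Of all genes 15.2% and 18.4% did so. Of 7 stratified epithelium markers Krtdap alone rose, Trp63 (0.09) and Dsc3 (0.11) did not pass. In mock 6 of the 7 lay below the 25th percentile, and the sum was 100.3 to 101 in mock and 112 to 117 with siRNA. Of 14 primitive endoderm markers Sparc rose by 0.67, while Cubn (-1.19), Amn (-0.80) and Sox17 (-0.40) did not pass. With the block these 3 were lower (adjusted p = 0.00153, 0.0456 and 0.048). Of 10 fibroblast markers limma called 0, with 0 at an unadjusted p under 0.05, and 6 lay below the 25th percentile, with a sum of 268 to 297 in mock and 281 to 324 with siRNA. The part of these cell types in the keratin differences was not tested.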

How the data were processed

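Biotin-labelled total RNA was hybridised to Affymetrix arrays, 1 per sample. The authors deposited log2 values, 1 per probe set, computed with RMA per the submitters' processing notes. The sources used here do not give the version or settings of RMA or how probe sets were defined. RMA compresses changes near background. Array medians lay between 6.08 and 6.12, so no scaling was added. The number of arrays limits the precision.

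Of 16556 probe sets, 15270 had 1 gene in the platform annotation, 0 had several and 1286 were unnamed. Each of the 15270 gene numbers matched a mouse gene table (GRCm38.p6), used for names, neighbours and promoters. For 3 genes with 2 probe sets, none a keratin, the brighter was kept, which left 15267 genes.

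Tests used limma 3.58.1 in R 4.3.3, with 3 group means on 6 arrays (3 residual degrees of freedom) and empirical Bayes with a variance trend. The replicate comparison and the blocked fit add the replicate number (2 residual degrees of freedom). P-values are two-sided, with Benjamini-Hochberg adjustment across all 15267 genes and calls made under 0.05. Deviations of arrays with the same replicate number from their group means correlated at 0.383, 0.281 and 0.443 across genes between the 3 pairs of groups, so the numbers were taken to pair the arrays. The titles' shared suffixes carry the same pairing. The blocked value stands beside a result if the call differs. The fit without the block, for both siRNAs, and the replicate comparison were tested on simulated data, with noise drawn independently for each array. The simulated data thus lacked the correlation between paired arrays and cannot decide between the fits with and without the block. The blocked fit and the test of the siRNA effect between replicates were not simulated.

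Named genes were all simple keratins, every keratin past the threshold in any comparison or with the block, up to 3 further keratins in each direction by difference, up to 5 others above the mock median, Fip1l1, and up to 4 members of each other list, those passing first. The keratins, classes and lists were chosen with earlier results of these data known. Krt88 was put in its class after the files were read. Alternatives were the block, median centring, repeated quantile normalization, 2 filters on dim genes, no variance trend, the dimmer probe set, unnamed probe sets and leaving out each array. Figures used matplotlib 3.10.9 in Python 3.11.15.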

Additional observations from a re-analysis of the deposited data

How the results depend on the processing

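The number of keratins called was 1 for both siRNAs minus mock, 1 for siRNA 2, 0 for siRNA 3, 0 for siRNA 2 minus siRNA 3 and 3 between replicates. With the replicate block it was 4, 5, 3 and 0 for the 4 siRNA comparisons. For both siRNAs it was 2 after median centring, 2 after repeated quantile normalization, 2 without the variance trend and 0 without genes under the median level. Without genes under the 25th percentile it was 1, but this was Krt15 (adjusted p = 0.0416) and not Krt13. Both filters on dim genes left Krt13 out. For siRNA 2 it was 0 after repeated quantile normalization, without genes under the 25th percentile or under the median, without the variance trend and with unnamed probe sets. Between replicates it was 0 when the group terms were left out of the model. Leaving out 1 array gave 0 to 2 for both siRNAs, 0 to 1 for siRNA 2, 0 to 1 for siRNA 3, 0 for their difference and 2 to 3 between replicates. Differences of single genes turned sign only when an array was left out. Over these fits both siRNAs minus mock ran from -0.29 to 0.47 for Krt7, -0.044 to 1.40 for Krt8, -0.41 to 0.85 for Krt18, -0.59 to 0.050 for Krt35 and -0.46 to 0.088 for Krt84. SiRNA 2 minus mock ran from -0.23 to 0.53 for Krt7, -0.14 to 1.31 for Krt8, -0.47 to 0.79 for Krt18 and -0.10 to 0.53 for Krt19. SiRNA 3 minus mock ran from -0.34 to 0.41 for Krt7, -0.34 to 0.91 for Krt18 and -0.047 to 0.76 for Krt19. With the replicate block, chosen after seeing the data for fits without an array, Krt7 was at -0.19 without mock replicate 2. The block left the other calls among the keratins as they were. The causes were not tested. For the 24 keratins below the 25th percentile of mock, signal over background is not known.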

Other observations

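Mock replicate 2 was the lowest of the 6 arrays for Krt33a (3.57 against 4.02 to 4.16 on the others) as it was for Krt75, and the highest for Krt35 (3.95 against 3.31 to 3.46). Over all 42 keratins it was the lowest array for 11 and the highest for 8, and over all 15267 genes for 2996 and 3666. The depletion effect differed between replicates at an unadjusted p under 0.05 for 5 of 42 keratins and for 679 of 15267 genes, and limma called none of them. In that test only the siRNA arrays gave a spread within a replicate, so variation of the mock arrays did not enter it.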
